A study of Mus musculus with 2 samples.

Results

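The 2 sets of ribosomal protein genes, those of the cytosolic and those of the mitochondrial ribosome, were examined for regions called with an antibody against PHLPP1 in mouse alveolar macrophages. Members were the protein-coding genes of RefSeq on mm10 whose symbol begins with Rpl, Rps, Mrpl or Mrps. Of 179 such genes, 10 Rps6k genes, which encode kinases, and 2 with pseudogene symbols were left out. The remaining 167 genes, of 21887 protein-coding genes in all, comprised 89 cytosolic and 78 mitochondrial members. The cytosolic set held 51 Rpl genes of the large subunit, 35 Rps genes of the small subunit and 3 Rplp genes of the stalk. The mitochondrial set held 49 Mrpl and 29 Mrps genes. A group of 11 cytosolic members were paralogs of another member or, as Rps19bp1, shared only the prefix. The retrogene Rps23rg1 was not counted among the 11.

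CUT&Tag was used, in which an antibody in permeabilised cells guides a transposase to nearby DNA, and the tagged fragments are sequenced. Both groups were primary alveolar macrophages, which live in the airspaces of the lung, taken by bronchoalveolar lavage from wild-type mice. One group was untreated (UT). Interleukin-4 (IL-4), a cytokine of type 2 immunity, was given to the other at 20 ng/ml for 4 h. Each group had 1 library with the PHLPP1 antibody. The number, strain, sex and age of the mice are not given in the sources used here, and no control-antibody library was used here. With 1 library a group, no difference between the groups has a replicate check and none was tested. PHLPP1 itself is a protein phosphatase best known as a brake on the kinase AKT.

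Each ribosome joins a small subunit, which reads the messenger RNA, to a large subunit, which forms the peptide bond. Cytosolic ribosomes translate nuclear messages, and their protein genes are among the most highly transcribed genes of most cells, with short messages that begin in a run of pyrimidines and are controlled together by the mTOR pathway. Mitochondrial ribosomes translate only the few proteins encoded in mitochondrial DNA, all of them parts of the respiratory chain or of ATP synthase. The ribosomes' own proteins are made from nuclear genes and imported.

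The promoters of the 2 members of each set with the highest untreated fold are shown first, because most of the regions described below lay at starts. The sequences are from RefSeq on GRCm38.p6 and run from 100 bases before the annotated start through the first 20 transcribed bases, on the gene's strand. Capitals mark letters searched for as motifs, namely ETS (CCGGAAG), SP1 and KLF (GGGCGG), NF-Y (CCAAT) and PU.1 (GAGGAAGT), on either strand. In Rpl13a the PU.1 and SP1 letters follow each other and share a base. Mrpl47 held none of the 13 motifs searched within this stretch. Rpl13a was at chr7:45128726-45128845 on the minus strand, Rpl37 at chr15:5116513-5116632 on the plus strand, Mrpl47 at chr3:32736736-32736855 on the minus strand and Mrps14 at chr1:160195115-160195234 on the plus strand.
Rpl13a: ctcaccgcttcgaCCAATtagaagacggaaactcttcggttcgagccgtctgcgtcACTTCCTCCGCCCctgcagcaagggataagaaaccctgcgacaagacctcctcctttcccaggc
Rpl37: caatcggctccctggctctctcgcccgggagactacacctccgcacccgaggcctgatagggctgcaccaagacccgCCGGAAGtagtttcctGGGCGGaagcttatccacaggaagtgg
Mrpl47: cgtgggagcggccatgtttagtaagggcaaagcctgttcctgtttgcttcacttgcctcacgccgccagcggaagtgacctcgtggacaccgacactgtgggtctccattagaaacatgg
Mrps14: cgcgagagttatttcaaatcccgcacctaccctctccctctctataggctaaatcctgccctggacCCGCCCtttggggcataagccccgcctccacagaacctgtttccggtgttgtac

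The untreated library held 165968 regions and the IL-4 library 226476, 1.36 times as many, each called against its own background. A region's fold is its fragment pileup plus 1 over the expected background plus 1, as deposited by the authors. The pileup is the number of fragments that cover the summit, the region's highest point. It was recovered from the fold and the p-value and came out whole, within 0.05, for 99.94% of untreated and 99.95% of IL-4 regions. The constant background, the level a library falls to where no local excess is found, was 13.91 fragments without and 15.87 with IL-4, 1.14 times as high. All 12 genes marking alveolar macrophages had a region without IL-4, and all but Chil3 (11) with it. Genes marking other cells had a region at 6 and 10 of 10 for lung epithelium, 4 and 8 of 10 for lymphocytes and 4 and 7 of 10 for granulocytes, where 75.5% of all genes had one without and 83.3% with IL-4. Ncr1, a lymphocyte marker, and the granulocyte markers Elane, Retnlg and S100a9 had none in either library. The median fold of the alveolar macrophage markers was 2.45 without and 3.62 with IL-4, beside 2.95 and 3.67 for all genes. It was 2.35 and 2.47 for lung epithelium, 2.18 and 2.14 for lymphocytes and 2.82 and 2.61 for granulocytes. The alveolar macrophage markers had a median length of 15.6 kb, against 4.6, 9.2 and 3.1 kb for the other lists in that order. Their windows were therefore larger, and the counts are not like for like. The part of other cells in the results was not tested.

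Nearly all ribosomal protein genes carried a region. Over the gene body and 1 kb each side, 76 of 89 cytosolic genes (85.4%) and 66 of 78 mitochondrial genes (84.6%) had one in the untreated library, beside 75.5% of all protein-coding genes. In the IL-4 library 84 cytosolic genes (94.4%) and 73 mitochondrial genes (93.6%) had one, beside 83.3% of all. Both sets stood about 10 percentage points above the whole, and the 2 sets were alike within 1 point in both libraries. Members are short targets, with a median length of 3.18 kb for cytosolic and 7.69 kb for mitochondrial genes against 17.2 kb for all, so their windows covered less DNA than those of the average gene.

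**Figure D1:**
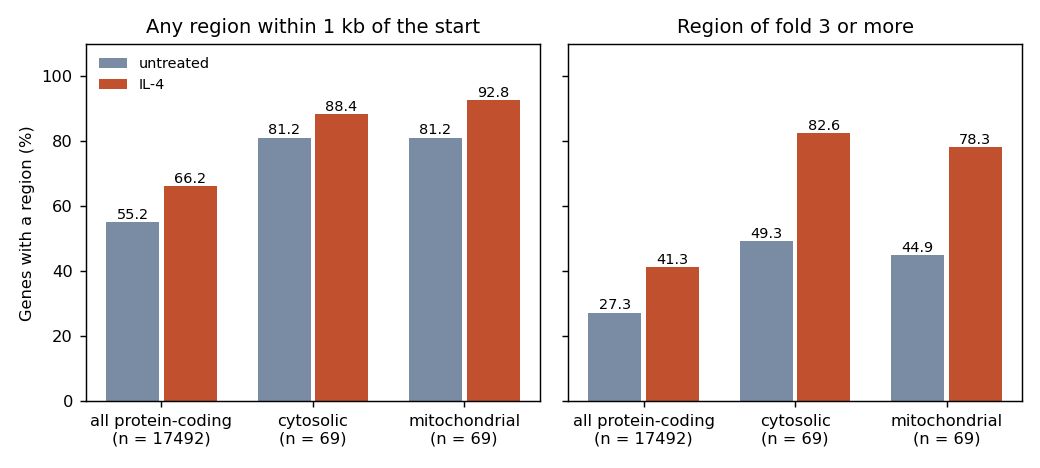
Share of genes (%, vertical axis from 0) with a region within 1 kb of a known start, for all protein-coding, cytosolic and mitochondrial genes, in the untreated (grey-blue) and IL-4 (red) libraries. The left panel counts any region and the right panel only regions with a fold of 3 or more, where the member sets stand at 82.6% and 78.3% with IL-4 against 41.3% of all genes.

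At gene starts the gap was wider. The start was known for 69 genes of each set and for 17492 genes in all. Within 1 kb of it, 56 cytosolic and 56 mitochondrial genes had an untreated region (81.2% of each set), beside 55.2% of all genes. With IL-4 the counts were 61 (88.4%) and 64 (92.8%), beside 66.2% of all. At a fold of 3 or more, 34 cytosolic (49.3%) and 31 mitochondrial genes (44.9%) qualified in the untreated library, beside 27.3% of all, and 57 (82.6%) and 54 (78.3%) in the IL-4 library, beside 41.3% of all. The plot of start shares shows these values, with the 2 sets close to each other in every pair of bars.

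The regions were of middle height rather than the strongest in the genome. Their median fold at starts was 3.29 in the untreated and 4.37 in the IL-4 library for cytosolic genes, and 3.12 and 4.24 for mitochondrial genes, against 2.95 and 3.64 for all genes with a start region. Of the 56 cytosolic start regions in the untreated library, 36 (64.3%) were in the upper 50% of all start regions and 6 (10.7%) in the top 10%. Of the 56 mitochondrial ones, 31 (55.4%) and 7 (12.5%) were. In the IL-4 library 44 of 61 cytosolic (72.1%) and 44 of 64 mitochondrial regions (68.8%) were in the upper 50%, and 4 (6.56%) and 7 (10.9%) in the top 10%.

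The share of genes with an untreated start region rose with GC content over all genes and in the cytosolic set, but not in the mitochondrial set. The median GC content of the promoters was 57.0% for cytosolic, 58.3% for mitochondrial and 56.3% for all genes, and the median number of CpG pairs was 21, 21 and 13. Among promoters of 55% to below 65% GC, 31 of 35 cytosolic (88.6%) and 28 of 36 mitochondrial genes (77.8%) had an untreated start region, beside 69.1% of all genes in that range. From 45% to below 55% GC the counts were 17 of 23 (73.9%) and 13 of 16 (81.2%), beside 46.5% of all. At 65% GC and above the counts were 7 of 7 (100%) and 13 of 15 (86.7%), beside 75.3% of all. Below 45% GC they were 1 of 4 and 2 of 2, beside 18.0% of all. The part of base composition in the shares was not tested beyond these ranges.

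Summits sat at the start itself. In the untreated library 54 of 56 cytosolic start regions (96.4%) had their summit within 250 bp of the start. So did 49 of 56 mitochondrial ones (87.5%), beside 70.5% of the start regions of all genes. The median distance was 86 bp for cytosolic, 79.5 bp for mitochondrial and 131 bp for all genes. Summits lay more often before the start than after it. Those downstream made up 30.4% of cytosolic, 39.3% of mitochondrial and 40.6% of all start regions. The 100 bp just before the start held 19 of 56 cytosolic summits (33.9%) and 16 of 56 mitochondrial summits (28.6%) without IL-4, and 25 of 60 (41.7%) and 21 of 64 (32.8%) with it.

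**Figure D2:**
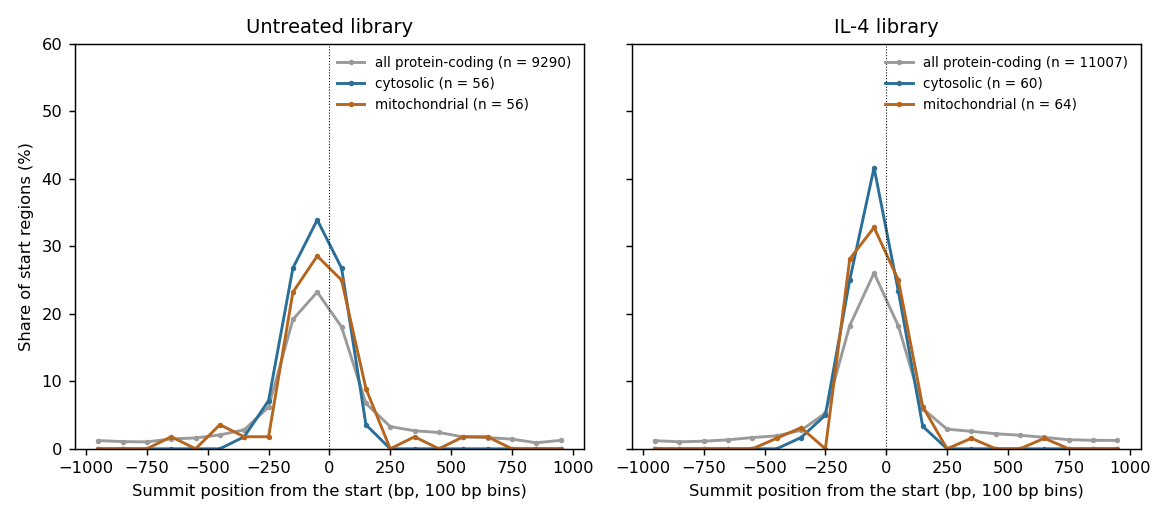
Position of region summits relative to the gene start (bp, 100 bp bins) as a share of the summits within 1 kb of the start (%), for all protein-coding, cytosolic and mitochondrial genes in each library. Both member sets peak in the bin just before the start, at 33.9% and 28.6% in the untreated library, against 23.2% for all genes.

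Away from the start, members carried few regions. An untreated region more than 1 kb from the start was found at 9 of 69 cytosolic genes (13.0%) and 19 of 69 mitochondrial genes (27.5%), beside 51.3% of all genes, which are longer. Counted per length, there were 2.90 such regions per 100 kb in cytosolic, 3.63 in mitochondrial and 6.01 in all genes. With IL-4 the densities were 5.08, 5.98 and 9.19 per 100 kb. The members' excess of regions was therefore at starts, while the rest of their bodies held fewer per length than the average gene.

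**Figure D3:**
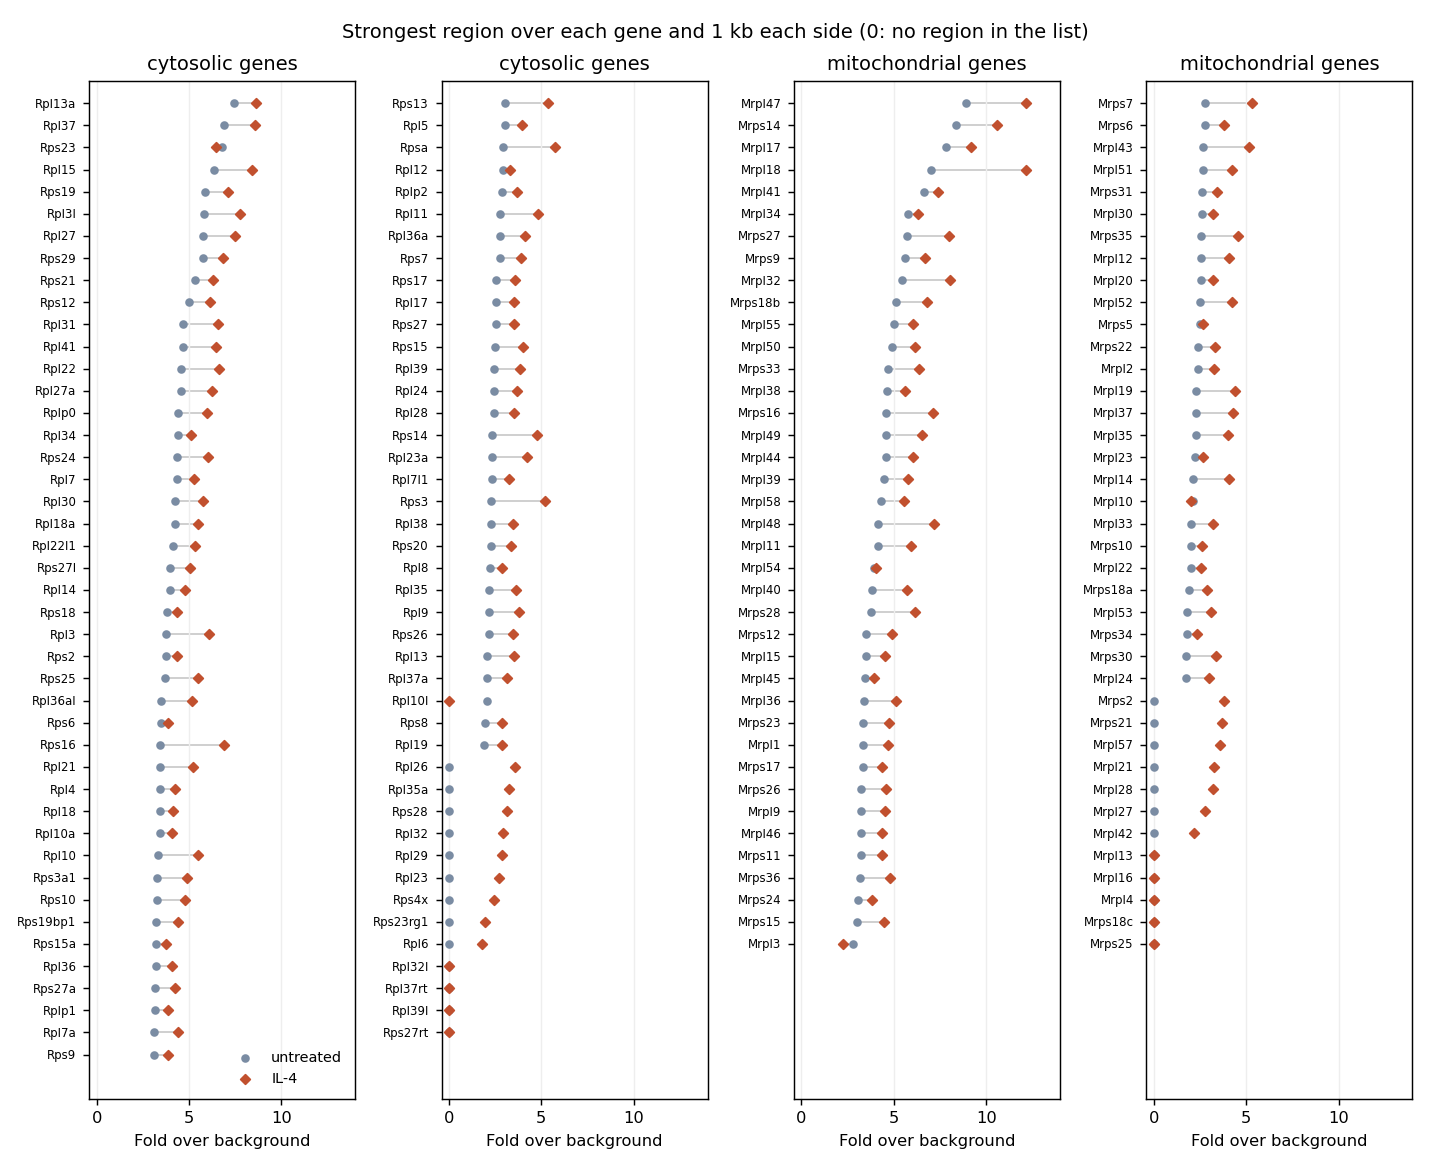
Fold over background of the strongest region over each gene shown and 1 kb each side (horizontal axis, linear from 0), with a circle for the untreated and a diamond for the IL-4 library, ordered by untreated fold within each set. A symbol at 0 means that the list holds no region there. Where a region is listed, the diamonds lie to the right of the circles except at Rps23, Mrpl3, Mrpl10 and Rpl10l, and the scales of the panels are the same.

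Among large subunit genes of the cytosolic ribosome, Rpl13a had the strongest region. Its protein also silences inflammatory messages in macrophages after it leaves the ribosome. The pileup was 113 fragments in the untreated and 191 in the IL-4 library, with folds of 7.46 and 8.64 and an untreated summit at −227 bp from the start. Rpl37, which encodes a small zinc-binding protein, followed at 102 and 144 fragments and folds of 6.91 and 8.60. Rpl15, a core protein of the large subunit, had 94 and 159 fragments and folds of 6.37 and 8.44. All 3 were higher in the IL-4 library, by amounts near those of the average gene as described below.

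Rpl5 and Rpl11 bind the smallest ribosomal RNA and, when assembly fails, restrain MDM2, the main inhibitor of p53. Rpl5 had 44 and 66 fragments (folds of 3.02 and 3.97). Rpl11 had 40 and 80 (folds of 2.75 and 4.80), so the untreated level was similar and the IL-4 level further apart. The stalk proteins, which recruit the elongation factors, were all marked in both libraries. Rplp0, the base of the stalk, had folds of 4.43 and 5.99, Rplp1 had 3.15 and 3.85 and Rplp2 had 2.88 and 3.68.

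Among small subunit genes, Rps23 was the exception to the general difference between the libraries. Rps23 lies at the decoding centre, where codon and anticodon meet. Its pileup was 100 fragments in the untreated and 108 in the IL-4 library, and its fold was 6.77 and 6.46. It was the only one of 75 cytosolic genes with a region in both libraries whose fold was not higher with IL-4. Rps19, the gene most often mutated in Diamond-Blackfan anaemia, had 90 and 171 fragments (folds of 5.88 and 7.10).

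Rps6 is the target of the S6 kinases, which act downstream of AKT and mTOR. Its fold was 3.49 in the untreated and 3.85 in the IL-4 library, with 51 and 64 fragments. Rps27a, made as a fusion with ubiquitin, had folds of 3.15 and 4.27. Rpsa, known also as a laminin receptor, had 2.95 and 5.75, and Rps3, at the channel where messenger RNA enters, had 2.28 and 5.22. In the untreated library Rps3 was below the lower quartile of the cytosolic set (2.53) and Rpsa between it and the median (3.29), and with IL-4 both were above the median (4.30).

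The large mitochondrial subunit held the strongest member of either set. Mrpl47, a protein near the exit of the peptide tunnel, had 139 fragments in the untreated and 235 in the IL-4 library, with folds of 8.88 and 12.2. Its start region ranked 103 of 9649 in the untreated and 24 of 11573 in the IL-4 library. Mrpl18 had 104 and 208 fragments and folds of 7.04 and 12.2, ranking 371 and 22. Within 1 kb of the Mrpl18 start, and pointing the other way, begins Tcp1, which encodes a subunit of the chaperonin that folds actin and tubulin. Ndufb5, of respiratory complex I, begins next to Mrpl47 in the same way. The region cannot be assigned to either gene of such a pair.

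Mrpl17, also near the tunnel exit, had folds of 7.85 and 9.19, Mrpl41 had 6.64 and 7.38, and Mrpl32, which is matured by a mitochondrial protease before it joins the ribosome, had 5.43 and 8.06. Mrpl44 had 4.56 and 6.05. Mrpl12, a stalk protein that also binds the mitochondrial RNA polymerase, had its strongest region 4942 bp after the start, with folds of 2.55 and 4.05. In the small mitochondrial subunit, Mrps14 led with 134 and 219 fragments and folds of 8.40 and 10.6. Mrps12, the counterpart of a bacterial decoding protein, had folds of 3.49 and 4.90. Mrps36, since recognised as a part of the 2-oxoglutarate dehydrogenase complex, had 3.15 and 4.80.

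Most members were higher in the IL-4 library, and so was the genome at large. The fold was higher with IL-4 for 74 of 75 cytosolic genes with a region in both libraries and for 64 of 66 mitochondrial genes, beside 84.4% of all genes. The median ratio of the pileups, IL-4 over untreated, was 1.66 for cytosolic genes, 1.62 for mitochondrial genes and 1.55 for 16128 genes in all. The strongest regions of the 2 libraries overlapped for 137 of the 141 members, the others being Mrpl37, Mrps10, Mrps31 and Rpl12. This overlap was not counted over all genes, so it cannot be read as a trait of the members. The libraries differed in their constant background by 1.14, which is below all 3 medians, and each ratio rests on 1 library a side. Depth, efficiency of the antibody step and the treatment therefore cannot be told apart.

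**Figure D4:**
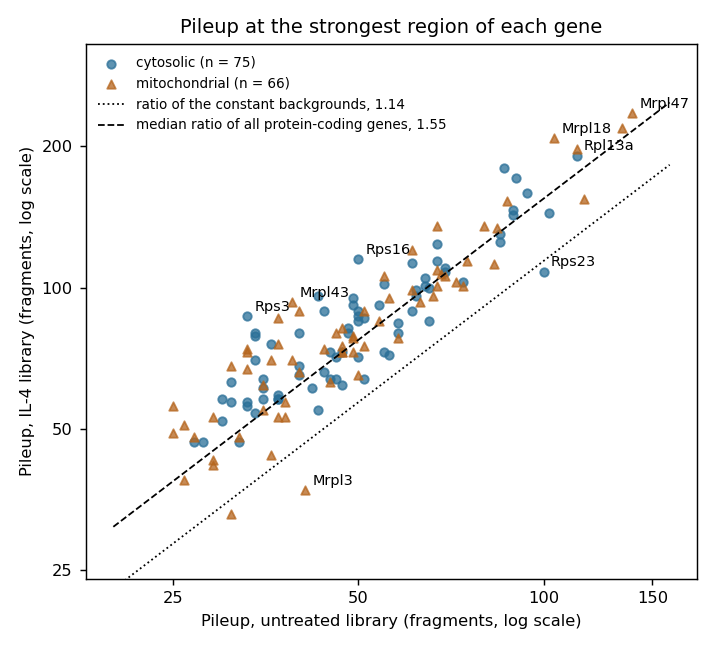
Pileup at the strongest region of each gene (fragments, log scale on both axes) in the untreated and IL-4 libraries, for the 75 cytosolic and 66 mitochondrial genes with a region in both. The dashed line is the median ratio of all protein-coding genes (1.55) and the dotted line the ratio of the constant backgrounds (1.14). Most points follow the dashed line, and Rps23, Mrpl3 and Mrpl10 lie below the dotted one.

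Most members could not be told apart from the common shift within counting error, although their pileup ratios ran from 0.902 to 2.64. The exact 95% interval of each pileup ratio, which covers counting error only, left out the ratio of 1.55 for 9 of 141 members (6.38%), beside 9.89% of all genes. Many intervals were wide, such as 0.890 to 2.57 at Mrps34, so an interval that holds 1.55 does not show a small departure. Of the 9 members whose intervals left out 1.55, 7 were above it. Rps3 had 33 fragments without and 87 with IL-4, a ratio of 2.64 (1.75 to 4.06), the highest of the cytosolic set. Mrpl43, which begins next to the mitochondrial helicase gene Twnk, had 39 and 93, a ratio of 2.38 (1.62 to 3.56). These values describe a pair of libraries and carry no test of IL-4.

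The other members above were Rpl35 at 2.35 (1.56 to 3.63), Rps16 at 2.30 (1.64 to 3.27), Mrpl12 at 2.32 (1.56 to 3.52), Rpl3l at 2.09 (1.61 to 2.74) and Mrpl18 at 2.0 (1.57 to 2.56). Those below were Rps23 at 1.08 (0.815 to 1.43) and Mrpl3 at 0.902 (0.563 to 1.44). Mrpl3 had 41 and 37 fragments, at a region 7633 bp after its start, within the gene body. Rps14 (2.32) and Mrpl37 (2.24), also among the 3 highest ratios of their sets, had intervals that held 1.55, and the low ratios of Rps6 (1.25), Rpl12 (1.28), Mrpl10 (1.06) and Mrps5 (1.22) did so too. At the lower edge, 71 of the 141 intervals (50.4%) lay wholly above the background ratio of 1.14, beside 40.7% of all genes.

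A further 9 cytosolic genes (10.1%) and 7 mitochondrial genes (8.97%) had a region in the IL-4 library alone, beside 9.60% of all genes. Led by −log10 q, the cytosolic ones were Rpl26, known to raise p53 translation, with a fold of 3.56, Rpl35a (3.26), Rps28 (3.14), Rpl32 (2.91) and Rpl29 (2.85). The remaining 4 were Rpl23 (2.73), Rps4x (2.43), the retrogene Rps23rg1 (1.96) and Rpl6 (1.78). The mitochondrial ones were Mrps2 (3.79), Mrps21 (3.68), Mrpl57 (3.56), Mrpl28 (3.23), Mrpl21 (3.26), Mrpl27 (2.79) and Mrpl42 (2.19). Their pileups with IL-4 reached at most 63 fragments, at Mrps2 and Mrpl28. The lowest pileup called over the constant background was 23 in the untreated and 26 in the IL-4 library, so a gene absent from the untreated list may still have held fragments.

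For IL-4 start regions of 40 to below 80 fragments, the share with an untreated partner lay on either side of the general rate, in small groups of members. Among start regions of 60 to below 80 IL-4 fragments, an untreated region was present at 15 of 15 cytosolic (100%) and 18 of 21 mitochondrial genes (85.7%), beside 94.9% of all. The 3 without were Mrps2, Mrps21 and Mrpl28. Among those of 40 to below 60 fragments the counts were 9 of 14 and 12 of 15, beside 65.3% of all. Around starts, 6 cytosolic genes (8.70%) and 8 mitochondrial genes (11.6%) carried a region with IL-4 alone, beside 13.9% of all. Regions of the untreated library alone were rarer still. Rpl10l, a testis paralog of Rpl10, was the only such member, with a fold of 2.08 and 30 fragments, over the gene window (1.12% of cytosolic genes, beside 1.84% of all) and at its start (1.45%, beside 2.89%).

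Under stricter calls, more members were marked with IL-4 alone. With −log10 q limited to 5 and above, 54 cytosolic (60.7%) and 43 mitochondrial genes (55.1%) had an untreated region, beside 47.7% of all, and 81 (91.0%) and 69 (88.5%) had an IL-4 region, beside 69.4%. The IL-4 library alone then marked 27 cytosolic (30.3%) and 27 mitochondrial genes (34.6%), beside 22.6% of all. At a fold of at least 3 over the gene window the untreated counts were 48 (53.9%) and 38 (48.7%), beside 36.8% of all, and the IL-4 counts 75 (84.3%) and 62 (79.5%), beside 53.8%. With IL-4 alone 27 (30.3%) and 24 (30.8%) were marked at that fold, beside 18.0% of all. Every one of these shares was higher in the member sets than in the whole. The quartiles of the untreated fold were 2.53 and 4.25 for cytosolic and 2.48 and 4.54 for mitochondrial genes, so the limit of 3 fell inside the middle of both sets.

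A few members had no region at all. In the cytosolic set these were Rpl32l, Rpl37rt, Rpl39l and Rps27rt, all retrogene-like or paralogous copies. Without the 11 paralogs and prefix-only genes, 69 of 78 cytosolic genes had an untreated region and 78 of 78, the retrogene Rps23rg1 included, an IL-4 region, while the 11 had 7 and 6. Rpl3l, the striated muscle paralog of Rpl3, had a strong region (folds of 5.83 and 7.76), but 3860 bp from its start, beyond the gene's far end, and none at the start. In the mitochondrial set Mrpl13, Mrpl16, Mrpl4, Mrps18c and Mrps25 had no region. The nearest untreated region lay 3.36 kb from Mrpl4, 3.62 kb from Mrpl16, 4.93 kb from Mrpl13, 15.4 kb from Mrps25 and 16.3 kb from Mrps18c.

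Chromosome X carried 4 cytosolic and no mitochondrial members. Rpl10 had folds of 3.35 and 5.51, Rpl36a of 2.75 and 4.09, Rpl39 of 2.41 and 3.85, and Rps4x had an IL-4 region alone. All 4 were marked with IL-4, beside 350 of 966 protein-coding genes of that chromosome. It held 763 untreated and 963 IL-4 regions in all.

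The 2 sets differed in what lay next to them. Another gene's start, pointing the other way, lay within 1 kb of the start for 24 of 69 mitochondrial genes (34.8%) and 9 of 69 cytosolic genes (13.0%), beside 8.48% of all. Any end of another gene lay within 1 kb of 44 of 78 mitochondrial (56.4%) and 32 of 89 cytosolic genes (36.0%), beside 24.8% of all. Mitochondrial partners included Fau (with Mrpl49), which encodes a cytosolic ribosomal protein, Sars2 (with Mrps12), a mitochondrial tRNA synthetase, and Psma2 (with Mrpl32), a proteasome subunit. Among genes with no other gene end within 1 kb, 48 of 57 cytosolic (84.2%) and 30 of 34 mitochondrial genes (88.2%) had an untreated region, beside 71.9% of all. With IL-4 the counts were 53 (93.0%) and 32 (94.1%), beside 79.2%. The IL-4 library alone marked 6 (10.5%) and 2 (5.88%) of them, beside 9.65%. The shares of genes with a region in each library were thus close to those of the whole sets. Start folds with IL-4 differed more, and in opposite directions. Their median was 5.03 with and 3.90 without a divergent start for mitochondrial genes, and 3.56 and 4.80 for cytosolic genes. In the untreated library the medians were 3.22 and 3.05, and 3.08 and 3.29. The part of the neighbours in these folds was not tested.

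In 1 case both neighbours were members. Mrpl46 and Mrps11 point away from each other, and a single region covered both starts, with folds of 3.22 and 4.39. Their starts lie 42 bp apart, and the promoter of Mrps11 at chr7:78783031-78783150 (plus strand, SP1 and KLF letters in capitals) is shown because it also contains the start of Mrpl46.
Mrps11: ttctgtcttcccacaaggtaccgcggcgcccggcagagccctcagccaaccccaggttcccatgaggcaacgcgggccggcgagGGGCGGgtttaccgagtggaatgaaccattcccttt

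Cytosolic genes stood out by the RNA genes they contain and by the letters at their start. Small nucleolar RNAs, which guide the modification of ribosomal RNA, lay inside 30 of 89 cytosolic genes (33.7%, with 59 such RNAs), 1 mitochondrial gene and 1.70% of all genes. Of the 30 host genes, 27 had an untreated (90.0%) and 30 an IL-4 region, beside 91.9% and 96.5% of all genes that host such RNAs. A pyrimidine, C or T, filled at least 6 of the first 8 bases of the transcript in 30 of 69 cytosolic genes (43.5%), 13 of 69 mitochondrial genes (18.8%) and 14.9% of all. All 8 were pyrimidines in 11 cytosolic genes (15.9%), no mitochondrial gene and 1.15% of all.

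**Figure D5:**
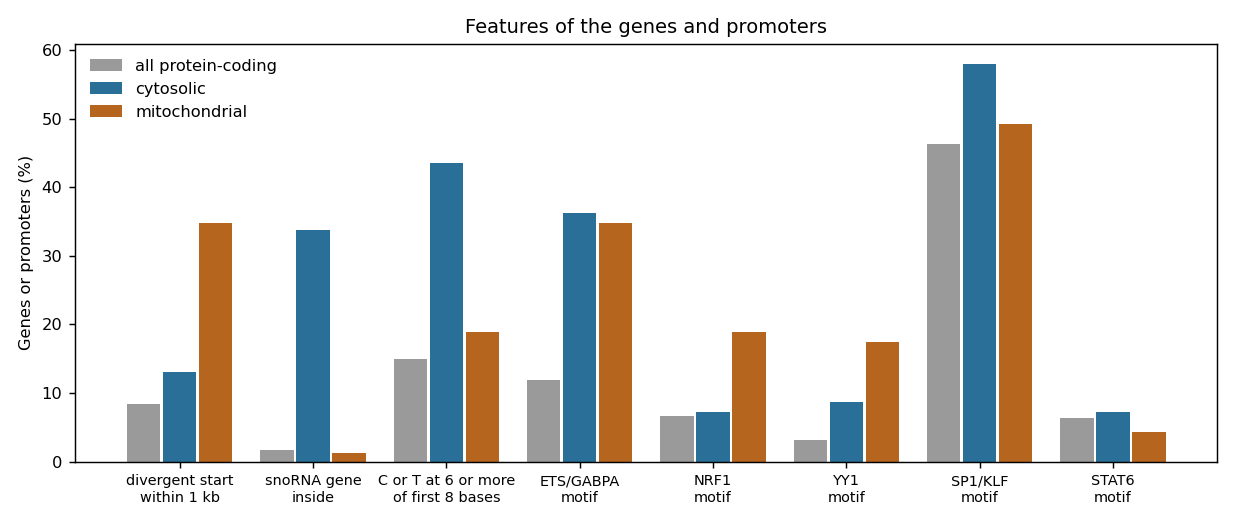
Share (%, vertical axis from 0) of all protein-coding, cytosolic and mitochondrial genes or promoters with each feature, namely a divergent start within 1 kb, a small nucleolar RNA gene inside, pyrimidines at the start, and 5 motifs in the 300-base promoter. Mitochondrial genes lead in divergent starts (34.8%) and NRF1 and YY1 letters, cytosolic genes in small nucleolar RNAs (33.7%) and pyrimidines (43.5%).

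The stretch of 30 bases around the start is shown for 5 of the 11, with the first 8 transcribed bases in capitals, because this pyrimidine run is the element through which mTOR is known to control their translation. They lay at chr14:18270972-18271001 (Rpl15, minus), chr7:4792950-4792979 (Rpl28, plus), chr11:114668565-114668594 (Rpl38, plus), chr17:27635230-27635259 (Rps10, minus) and chr4:86857353-86857382 (Rps6, minus).
Rpl15: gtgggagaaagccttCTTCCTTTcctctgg
Rpl28: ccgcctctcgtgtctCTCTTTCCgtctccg
Rpl38: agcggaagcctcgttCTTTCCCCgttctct
Rps10: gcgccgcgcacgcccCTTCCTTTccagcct
Rps6: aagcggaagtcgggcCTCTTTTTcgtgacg
Their start folds spanned most of the cytosolic range, from 2.28 and 3.44 at Rpl38 and 2.41 and 3.50 at Rpl28 through 3.29 and 4.80 at Rps10 to 6.37 and 8.44 at Rpl15. Of the 11 genes, 9 had a start region in both libraries, and Rpl32l and Rps23rg1 had none in either. Start regions in both libraries were found at 55 of 69 cytosolic genes and at 9143 of 17492 genes in all.

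Promoter motifs were counted in the 300 bases from 250 before the start to 50 after it, on both strands, for the 138 members in the table. A match describes the letters in that window and does not show a site in use. The ETS letters CCGGAAG were held by 25 cytosolic (36.2%) and 24 mitochondrial promoters (34.8%), beside 11.9% of all. The YY1 letters AAGATGGC were held by 6 (8.70%) and 12 (17.4%), beside 3.21%, and in 8 of the 12 mitochondrial promoters they lay after the start. The SP1 letters GGGCGG were held by 40 (58.0%) and 34 (49.3%), beside 46.3%.

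NRF1, a factor known for nuclear genes of mitochondrial proteins, was searched as GCGC, any base, then TGCGC, on both strands. It was held by 13 mitochondrial promoters (18.8%), 5 cytosolic promoters (7.25%) and 6.66% of all. Of the 13, 11 had an untreated start region, and the other two, Mrpl57 and Mrps21, had one with IL-4 alone. Those 11 are 84.6% of the 13, beside 83.3% of all promoters with these letters and 80.4% of mitochondrial promoters without them. Examples are shown with the match in capitals, at chr7:105811117-105811146 (Mrpl17, minus), chr1:42851218-42851247 (Mrps9, plus), chr13:14613105-14613134 (Mrpl32, minus) and chr1:79775973-79776002 (Mrpl44, plus).
Mrpl17: aggctctgatGCGCACGCGCaaacgcggta
Mrps9: tgggaggtctGCGCCTGCGCagtctccagg
Mrpl32: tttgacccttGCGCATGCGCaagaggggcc
Mrpl44: agaagcacttGCGCACGCGCagtacactag
In the untreated library the median start fold was 3.42 for the mitochondrial genes with these letters and 3.02 for those without, and over all genes it was 3.55 and 2.88. In the cytosolic set the order was the opposite, at 2.48 for the 5 genes with them and 3.31 for those without.

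The remaining motifs were held by few members or at shares near the whole. ZBTB33, searched as TCTCG joined to CGAGA, was held by 5 cytosolic promoters (7.25%), 1 mitochondrial promoter (1.45%) and 0.726% of all. The STAT6 letters, TTC and GAA separated by 4 bases, are those of the main factor activated by IL-4. They were held by 5 cytosolic (7.25%) and 3 mitochondrial promoters (4.35%), beside 6.38% of all. The PU.1 letters of the macrophage lineage factor were held by 3 (4.35%) and 1 (1.45%), beside 3.14%. The NF-Y letters CCAAT were held by 22 (31.9%) and 27 (39.1%), beside 39.2%, the E-box CACGTG by 5 (7.25%) of each, beside 7.91%, the TATA letters TATAAA by 8 (11.6%) and 4 (5.80%), beside 13.3%, and the CRE letters TGACGTCA by 5 (7.25%) and 2 (2.90%), beside 2.33%. No member promoter held the letters searched for ERR (TCAAGGTCA) or for ZNF143.

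Other genes of the pathway were read beside the same shares of all protein-coding genes, 75.5% without and 83.3% with IL-4. Ribosomal proteins under other symbols had a region at 3 of 3 cytosolic genes in both libraries, Fau among them. At Fau the pileups (67 and 109 fragments) and folds (4.56 and 6.52) were those of its divergent neighbour Mrpl49, already counted as a member. Of the mitochondrial proteins under other symbols, 4 and 5 of 5 genes had a region, Chchd1 being marked with IL-4 alone. Of 22 genes of cytosolic ribosome assembly, 20 were marked in the untreated and 22 in the IL-4 library, with median folds of 4.08 and 5.44. Ncl, the nucleolar protein nucleolin, had the highest folds of the list, 6.64 and 10.6, with 98 and 182 fragments. All 16 cytosolic translation factors were marked in both, with median folds of 5.40 and 6.55. Eef2, the factor that moves the ribosome along, had 132 and 133 fragments, with folds of 6.63 and 5.30, a fold being taken over the local background of each library.

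Genes of mitochondrial translation and ribosome assembly were marked at 16 (72.7%) and 20 (90.9%) of 22, with median folds of 3.43 and 4.27. The first share is below that of the mitochondrial ribosomal protein genes (84.6%) and of all genes (75.5%). Mtif3, a mitochondrial initiation factor, had a region in the untreated library alone (1.94), and Fastkd2 had none. The highest of that list was Mtrf1l, a release factor, with folds of 8.50 and 8.84. Over the strongest region of each gene, the cytosolic ribosomal proteins (3.29 and 4.30) and mitochondrial ribosomal proteins (3.22 and 4.39) thus stood below the translation factors in median fold and close to the mitochondrial translation list. These lists were not tested against each other.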

How the data were processed

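CUT&Tag libraries of alveolar macrophages, 1 untreated and 1 with IL-4, were compared as lists of called regions. The authors deposited 1 list per library, with a fold (a ratio over the local background), a −log10 p-value, a −log10 q-value, a score and a summit position. Bowtie 0.12.8, MACS2 2.2.7.1, DiffBind and mm10 are named per the submitters' processing notes, without roles or settings. Whether duplicate fragments were removed is not given in the sources used here.

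Pileup and background were recovered here from the deposited fold and −log10 p. A region counted where it shared at least 1 bp with the gene body and 1 kb each side, or with 1 kb around the start. Genes came from the RefSeq table and starts and strands from the RefSeq promoter table, both of GRCm38.p6 (mm10). Genes with no start there were left out of the counts at starts, and either end stood in for it in the start-window alternative. Intervals of pileup ratios are exact conditional binomial, at 95%, and cover counting error only. Depth per library was read from the constant background. Python 3.11.15 with pandas 2.3.3 and scipy 1.17.1 was used, and recovery and overlap were tested on simulated data.

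Members, lists and motifs were chosen with earlier results of these data known. Genes named were, in each set, the 5 strongest by fold in each library, the 5 of highest −log10 q in one library alone, those with no region, the 3 highest and 3 lowest pileup ratios, and 15 chosen by role. Some of the genes so named are not reported here. Alternatives were a stricter q or fold, other windows, equal list lengths, summits only, and sets without paralogs, without shared gene ends and, added after the data were seen, without chromosome X. No test between groups was run.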

Additional observations from a re-analysis of the deposited data

How the results depend on the processing

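Of 120 comparisons (12 results under 10 alternatives), all but 12 stayed within 1.5 times the reported value. With −log10 q limited to 5 and above, 43 mitochondrial genes were marked without IL-4 in place of 66, and the IL-4 library alone marked 27 cytosolic and 27 mitochondrial genes in place of 9 and 7. At a fold of at least 3, the untreated library marked 48 cytosolic and 38 mitochondrial genes, and the IL-4 library alone 27 and 24. Fewer genes entered without those near another gene end (57 cytosolic and 34 mitochondrial), and the counts fell by construction to 48 and 53 cytosolic and 30 and 32 mitochondrial genes in the untreated and IL-4 libraries, with 2 mitochondrial genes in the IL-4 library alone. The count of genes marked with IL-4 alone thus depends on the limit of the call. Medians of fold and pileup ratio stayed within 1.5 times under all 10. That range is wider than the gaps between these medians, so staying within it does not show that their order held. Without genes near another gene end, the median pileup ratio of mitochondrial genes was 1.52, beside 1.55 for all genes, shared ends included. Pileups near the lowest called, 23 and 26 fragments, limit what can be called absent. No paired analysis was possible because each group had 1 library.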

Other observations

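Pseudogene copies of cytosolic ribosomal protein genes carried few regions. Over the gene body alone, 12 of 318 Rpl and Rps pseudogenes (3.77%) had an untreated region and 19 (5.97%) an IL-4 region, beside 16.3% and 18.6% of 10429 pseudogenes in all. With 1 kb each side the shares were 14.8% and 21.7%, beside 25.4% and 29.3%. Their median length was 531 bp, against 932 bp for all pseudogenes. None of 6 Mrpl and Mrps pseudogenes had a region over the gene body in either library, and with 1 kb each side 3 had one in the untreated and 2 in the IL-4 library. How reads that map to several near-identical copies were treated is not given in the sources used here, and its part in these shares was not tested.

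Regions over members were wider in the IL-4 library. The median width of the strongest region was 479 bp in the untreated and 557.5 bp in the IL-4 library for cytosolic genes, and 465 and 553 bp for mitochondrial genes. Widths were not measured over all genes. Several regions over 1 gene were more frequent with IL-4, at 22 of 84 cytosolic and 39 of 73 mitochondrial genes, against 13 of 76 and 21 of 66 without. The rise was general. Regions per gene averaged 1.04 without and 1.26 with IL-4 for cytosolic, 1.40 and 2.01 for mitochondrial, and 3.75 and 5.53 for all genes. The list was 1.36 times as long with IL-4, and its part in these differences was not tested.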
